A study of Mus musculus with 24 samples.

Results

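The 44 genes described here are cytochrome P450s of families 1 to 3 and 3 transcription factors that sense foreign chemicals. They were taken from the 18194 genes with a probe set on a mouse liver microarray. They are the genes whose only annotated symbol begins with Cyp1, Cyp2 or Cyp3 and a subfamily letter and number, with 2 exceptions left out by the rule, and Nr1i2, Nr1i3 and Ahr. The rule reads gene symbols and no measured values, but it was set with earlier results of these data known. Family 1 had 3 members, family 2 had 33 and family 3 had 5. The P450 reductase gene Por also belongs to the rule and was not analysed here, because no probe set carried that symbol alone.

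P450s of families 1 to 3 are heme enzymes of the endoplasmic reticulum that oxidise drugs, plant toxins, steroids, bile acids and fatty acids, and the hepatocyte is their main site. Nr1i2 encodes the pregnane X receptor and Nr1i3 the constitutive androstane receptor, nuclear receptors that pair with RXR and induce Cyp3a and Cyp2b genes when drugs or bile acids are present. Ahr encodes the aryl hydrocarbon receptor, which pairs with Arnt and induces Cyp1a genes. Thyroid hormone is known to influence P450 activity in the liver, and its receptor TRβ is the main thyroid hormone receptor of hepatocytes.

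Liver RNA came from 24 male mice in 8 groups of 3, each on 1 array. The wild type (WT), the TRβ knock out (KO) and the mutant carrying E125G and G126S in TRβ (GS), all on a C57BL/6J background, formed the first submission, and mice with Y147F in TRβ on C57BL/6JCrl the later one. E125G and G126S lie in the DNA-binding domain, and Y147F replaces a tyrosine linked to kinase signalling. Per the labels, all groups, PBS controls included, were first made hypothyroid for 3 weeks by a low-iodine diet with methimazole and perchlorate. The first submission began at 8 to 9 weeks of age with drinking water that held methimazole at 0.02%, perchlorate at 0.5% and saccharin at 0.3%, and the later one at 10 to 11 weeks with methimazole at 0.05% and perchlorate at 1%. In each genotype 1 group then received T3, the active thyroid hormone, once into the peritoneum, at 20 µg per 100 g in the first submission and 200 ng per g in the later, and 1 group received PBS. Livers were taken after 6 h. The labels do not say how the knock out allele was made or whether mice shared a cage or litter. The p-values rest on the spread between these arrays alone. Because all Y147F arrays are of the later submission and no WT mouse is, Y147F and submission cannot be told apart in any comparison of Y147F with WT, and comparisons within Y147F do not share that limit.

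Values below are log2 intensities or differences of them ± SE, with 3 arrays in each group, a number that limits their precision. Genes entered the test when at least 3 arrays read them at or above that array's 40th percentile (5.32 to 5.45). Of these 14164 genes a difference was called when limma's p, after Benjamini-Hochberg adjustment over all of them, was under 0.05. Array medians lay between 5.88 and 6.00. Hepatocyte markers, 7 measured, averaged between 14.34 and 14.50 on all arrays, and none was called in any comparison. Dio1, the classic T3-induced deiodinase, rose with T3 by 6.63 ± 0.28 in WT, 7.52 in Y147F, 1.82 in KO and 2.52 in GS. Without T3 it stood above WT by 1.24 ± 0.28 in KO and 1.09 ± 0.28 in GS. Of 17 listed T3 targets tested, Dio1 among them, 6 were called higher than WT in KO without T3 and 5 in GS, and none lower. The shares of all genes called there were 6.86% and 2.97%. The Thrb probe set did not show the knock out (KO minus WT without T3, 0.19 ± 0.17, adjusted p = 0.612), but its place relative to the deleted part was not known here, so it is no check of the genotype. The third Y147F PBS array stood apart in RNA quality. Its difference between the 3′ and 5′ probe sets of Actb was 0.80, against 0.49 to 0.60 on the other arrays. Results of members in Y147F are given with and without it where that changes a call. Fits without single arrays or with other settings were read for members only, so calls of other genes carry no such check. Title numbers, which the labels do not explain, were over 100000 on all 6 KO arrays, 1 of 6 WT, 2 of 6 GS, all 3 Y147F PBS and 1 of 3 Y147F T3 arrays, and a covariate for this was among the alternatives. In bulk RNA, fewer cells of a type and less RNA per cell cannot be told apart.

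Of the 44 genes 38 passed the filter, 35 of them P450s. Cyp2b19, Cyp2c65, Cyp2d12, Cyp2j13, Cyp3a16 and Cyp3a44 did not, with values from 3.38 to 5.34 on all arrays. At the other end, 10 members had a mean above 13.15, the 99th percentile of all probe sets, and the brightest probe set of an array reached 15.12 to 15.21. Cyp2e1, which oxidises ethanol, acetone and paracetamol in pericentral hepatocytes, read from 14.57 to 14.76 on every array. Levels of different genes are not compared, since each comes from its own probe set.

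In WT mice both Nr1i2 and Nr1i3 were lower 6 h after T3, and both were lower in Y147F too. Neither difference was called in KO or GS. Without T3, Nr1i3 was lower in KO and GS than in WT, on arrays that overlapped those of T3-treated WT mice. Ahr was called in no comparison.

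The promoters of the receptors are shown because they moved together. The windows hold the 250 bases before a RefSeq transcription start (GRCm38.p6), printed 5′ to 3′ on the strand of the gene. Nr1i2 is at chr16:38294825-38295074 on the minus strand and Nr1i3 at chr1:171213720-171213969 on the plus strand. The annotated genes begin at 38294849 (Nr1i2) and 171213934 (Nr1i3), inside these windows, so the last bases of each lie within the gene.
Nr1i2 promoter: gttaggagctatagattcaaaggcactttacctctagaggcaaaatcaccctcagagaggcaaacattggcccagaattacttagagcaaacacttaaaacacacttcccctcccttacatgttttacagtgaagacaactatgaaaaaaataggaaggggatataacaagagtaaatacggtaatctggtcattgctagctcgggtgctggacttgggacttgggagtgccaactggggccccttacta
Nr1i3 promoter: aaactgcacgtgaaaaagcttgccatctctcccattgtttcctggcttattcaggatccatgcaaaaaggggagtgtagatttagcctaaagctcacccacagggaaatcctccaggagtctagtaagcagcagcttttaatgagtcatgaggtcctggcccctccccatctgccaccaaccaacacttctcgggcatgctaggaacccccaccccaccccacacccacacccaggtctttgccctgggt
Neither window, nor the 50 bases after the start, held AGGTCA, the half-site that many nuclear receptors bind, or AGTTCA, a variant common in Cyp3a and Cyp2b enhancers, on either strand. That says only that these letters were not there. Among all 32851 promoter windows of 300 bases, 16.3% held AGGTCA and 14% held AGTTCA.

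Nr1i2 read 9.56, 9.94 and 9.93 in WT mice given PBS and 8.85, 8.65 and 8.88 in those given T3. In Y147F the PBS arrays read 9.78, 9.80 and 9.80 and the T3 arrays 8.74, 9.09 and 9.07. All T3 arrays of both genotypes lay below all their PBS arrays. The difference was -1.02 ± 0.13 in WT (adjusted p = 1.32e-05), a 2.03-fold lower level, and -0.83 ± 0.13 in Y147F (adjusted p = 0.000189), 1.77-fold lower. A second probe set of Nr1i2, tested alone after the data were seen, gave -0.87 ± 0.12 in WT and -0.74 ± 0.12 in Y147F and was called in both. In KO, Nr1i2 read 9.38, 9.43 and 9.63 with PBS and 9.92, 9.59 and 9.35 with T3. In GS it read 9.39, 9.57 and 9.73 with PBS and 9.62, 9.41 and 9.57 with T3. The groups of each of these genotypes overlapped, and the difference was 0.14 ± 0.13 in KO (95% interval -0.13 to 0.41) and -0.03 ± 0.13 in GS (-0.31 to 0.24). Tested as a difference of responses, KO lay above WT by 1.16 ± 0.19 (adjusted p = 0.000795) and GS by 0.99 ± 0.19 (adjusted p = 0.00329). Y147F differed from WT by 0.19 ± 0.19, with an interval of -0.20 to 0.58.

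Nr1i3 read 11.58, 11.72 and 11.44 in WT without T3 and 10.88, 10.82 and 10.58 with it. In Y147F it read 11.55, 11.68 and 11.37 with PBS and 10.64, 11.02 and 10.44 with T3. The groups did not overlap in either genotype. The T3 difference was -0.82 ± 0.15 in WT (adjusted p = 0.000807), 1.77-fold lower, and -0.83 ± 0.15 in Y147F (adjusted p = 0.000781), 1.78-fold lower. KO arrays read 11.30, 10.61 and 10.77 with PBS and 10.87, 11.00 and 11.01 with T3, and GS arrays 10.82, 11.12 and 11.01 with PBS and 11.07, 10.99 and 11.14 with T3. The groups of each overlapped, and the T3 difference was 0.07 ± 0.15 in KO (interval -0.25 to 0.38) and 0.08 ± 0.15 in GS (-0.23 to 0.40). The responses of KO and GS lay above that of WT by 0.89 ± 0.21 (adjusted p = 0.0226) and 0.90 ± 0.21 (adjusted p = 0.021). The calls of Nr1i2, and those of the T3 difference of Nr1i3 in WT and in Y147F, were kept in every fit that left out 1 array. The differences between genotypes in the response of Nr1i3 were not. The KO difference lost its call without WT T3 replicate 3, WT PBS replicate 2, KO T3 replicate 2 or 3, or KO PBS replicate 2 or 3 (adjusted p 0.0534 to 0.0724), and in a fit of those 4 groups alone (0.0527). The GS difference lost it without WT T3 replicate 3, WT PBS replicate 2, GS T3 replicate 3 or GS PBS replicate 1 (0.0575 to 0.0692).

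Without T3, the difference of KO from WT for Nr1i3 was -0.69 ± 0.15 (adjusted p = 0.00818), 1.61-fold lower. In GS the difference was -0.60 ± 0.15 (adjusted p = 0.0343), 1.51-fold lower. These comparisons share the WT PBS arrays with each other and with the T3 response in WT, and the highest of the KO and GS arrays, 11.30, lay below the lowest WT array, 11.44. The KO call was lost without KO PBS replicate 2 (adjusted p = 0.0549) and in a fit of only these groups (0.08). The GS call was lost without WT PBS replicate 1 or 2 or GS PBS replicate 1 or 3 (0.0873 to 0.155). Nr1i2 differed from WT by -0.33 ± 0.13 in KO and by -0.25 ± 0.13 in GS, neither called (adjusted p = 0.157 and 0.429). Y147F differed from WT without T3 by -0.02 ± 0.13 for Nr1i2 and -0.05 ± 0.15 for Nr1i3.

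Ahr ranged from 9.71 to 10.52 over all arrays. Its T3 difference was -0.04 ± 0.17 in WT (interval -0.39 to 0.31), -0.11 in KO, -0.24 in GS and 0.07 in Y147F. None was called. Its pooled SD within groups, 0.22, was larger than that of 93% of genes tested.

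**Figure D1:**
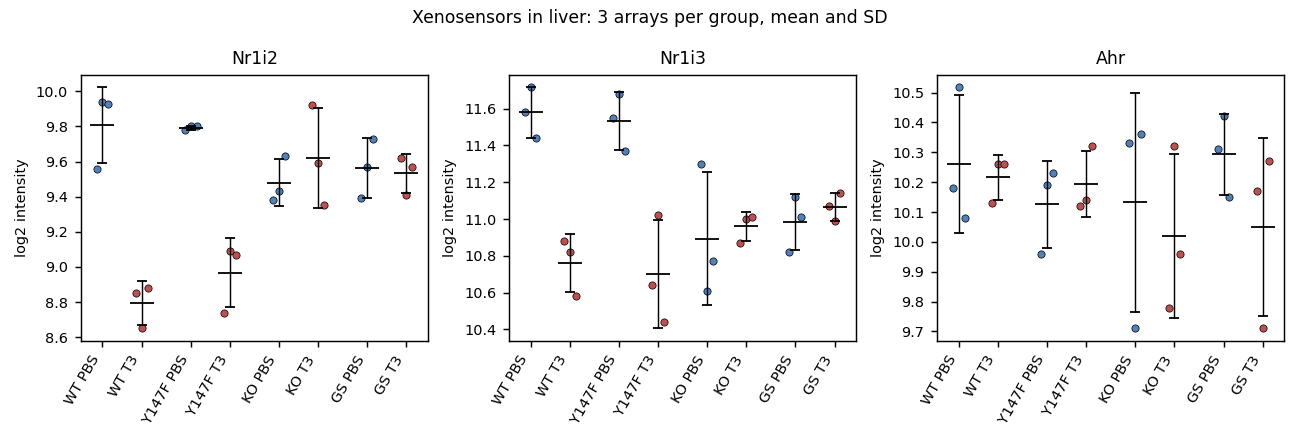
Log2 intensity (vertical axis) of Nr1i2, Nr1i3 and Ahr on each array of the 8 groups (horizontal axis), PBS in blue and T3 in red, with a bar for the mean and whiskers for 1 SD, n = 3. T3 arrays of WT and Y147F lie below their PBS arrays for Nr1i2 and Nr1i3, KO and GS arrays overlap, and Nr1i3 in KO and GS without T3 lies below 11.44, the lowest WT PBS array.

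Other genes of the pathway were read from a list of partners and regulators, 21 of 28 tested. In WT 3 rose and 3 fell with T3, in Y147F 4 and 4, and in KO and GS none. Of all genes tested, 10.6% were called with T3 in WT, 11.6% in Y147F, 0.177% in KO and 0.148% in GS. Cebpb, a liver transcription factor of the acute phase response, rose by 1.19 ± 0.13 in WT and 0.74 ± 0.13 in Y147F. Nr3c1, the glucocorticoid receptor, which supports expression of both Nr1i2 and Nr1i3, rose by 0.72 ± 0.10 in WT. The bile acid receptor Nr1h4 fell by 0.68 in WT and by 0.76 in Y147F, and Hnf4a, a hepatocyte nuclear receptor that acts on many P450 promoters, fell by 0.37 in WT. Without T3, KO stood higher than WT for Cebpb (0.54), Foxa1 (0.52) and Hsp90aa1 (0.47) and lower for the coactivator Ppargc1a (-0.69), and in GS none was called. There 6.86% of all genes were called in KO and 2.97% in GS.

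Targets of Nr1i2 and Nr1i3 outside these P450 families were counted, 17 of them tested. With T3, 1 rose and 1 fell in WT and the same numbers in Y147F, near the 10.6% and 11.6% of all genes called. None was called in KO or GS, beside 0.177% and 0.148% of all genes. Papss2, which makes the sulfate donor for sulfotransferases, rose by 1.40 ± 0.11 in WT and 1.09 ± 0.11 in Y147F. Alas1, the first enzyme of heme synthesis, fell by 0.94 ± 0.30 in WT (adjusted p = 0.0462) and by 1.08 ± 0.30 in Y147F. In KO without T3, 2 stood higher and 4 lower than in WT, beside 6.86% of all genes called. The glutathione transferases Gstm2 (-1.10) and Gsta2 (-1.07) were lower, and Papss2 (0.73) and the carboxylesterase Ces2a (0.50) higher. In GS, Papss2 was the one called (1.13), beside 2.97% of all genes. Of 6 tested targets of Ahr none was called in WT, KO or GS with T3, and Nfe2l2, the regulator of antioxidant genes, fell in Y147F by 0.40. In KO without T3, Fgf21 stood higher by 1.18.

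The first comparison across all members asks what T3 did in a liver with an intact receptor. In WT 5 of the 38 were called, 2 higher and 3 lower, which is 13.2%, beside 10.6% of all genes tested (5.73% higher and 4.91% lower). The groups did not overlap for 14 members (36.8%), beside 29.5% of all genes. The share of members that T3 changed was thus near the background. The median difference over the members was -0.04, and over all genes -0.03. Besides the receptors, Cyp2c70 and Cyp2f2 rose and Cyp1b1 fell. In Y147F 6 members were called, 2 higher and 4 lower, beside 11.6% of all genes (5.52% higher and 6.07% lower), and 16 (42.1%) did not overlap, beside 26.1%. No response of Y147F differed from that of WT by limma, in the members or among all genes (0% called, 1 member and 760 genes at an unadjusted p under 0.05).

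In KO only Cyp2c23 was called with T3 (lower), beside 0.177% of all genes (0.0494% lower), and 6 members (15.8%) did not overlap, beside 15.2%. In GS no member was called with T3 by limma, with 2 at an unadjusted p under 0.05, beside 0.148% of all genes called (0.0141% lower), and 3 (7.89%) did not overlap, beside 13.1%. The difference of responses was called for 3 members in KO, 2 higher and 1 lower, beside 3.09% of all genes (1.03% higher and 2.05% lower), and for 2 in GS, both higher, beside 2.92% (0.967% higher and 1.96% lower). These were Nr1i2 and Nr1i3 in both mutants and Cyp2c70 in KO. No member's T3 response differed between GS and KO (0% of all genes called, 5 members and 810 genes at an unadjusted p under 0.05).

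**Figure D2:**
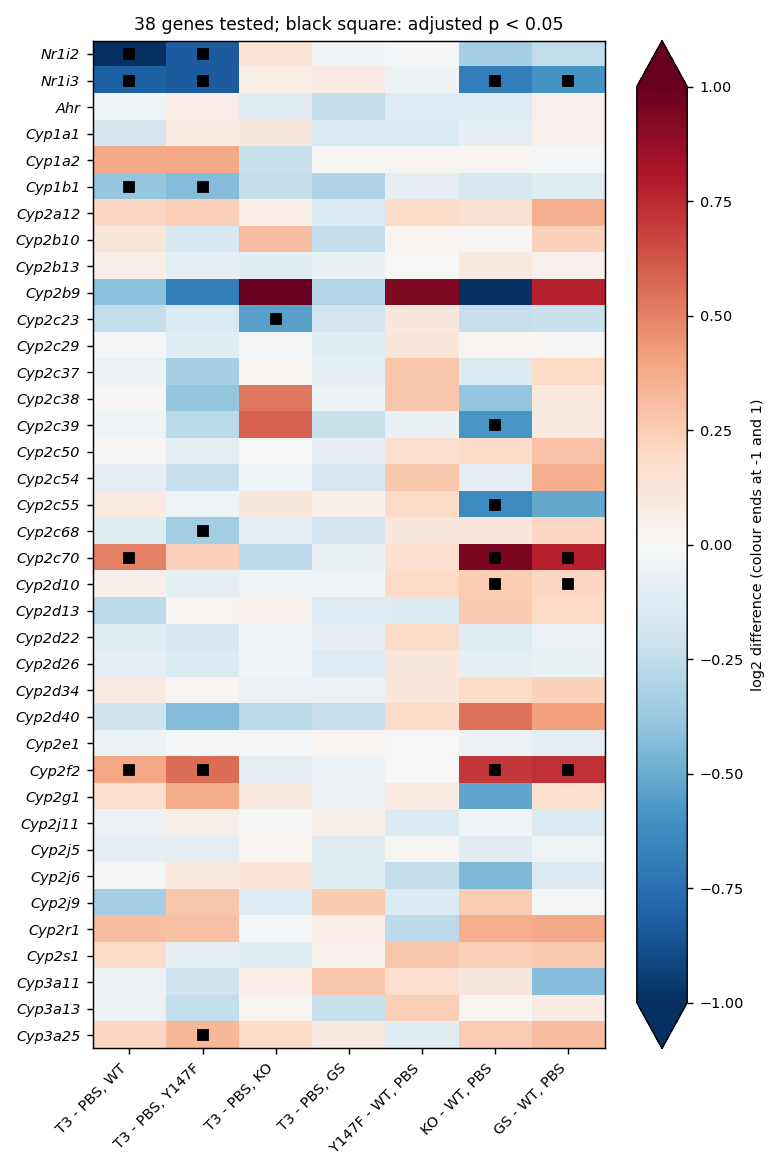
Log2 differences (colour, red higher and blue lower, ends of the scale at -1 and 1) of the 38 genes tested (rows) in 7 comparisons (columns), with a black square where limma's adjusted p was under 0.05. Dark cells without a square, such as those of Cyp2b9, mark large differences with a large spread. The squares of Nr1i2 stand in the WT and Y147F columns of T3. Those of Nr1i3 stand there and in the columns of KO and GS against WT without T3.

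Family 1 holds the aromatic hydrocarbon-inducible P450s. Cyp1a2, which oxidises caffeine and aromatic amines, read 13.19, 12.91 and 13.20 in WT without T3 and 13.35, 13.73 and 13.35 with it. Every T3 array lay above every PBS array, but the difference of 0.38 ± 0.14 was not called (adjusted p = 0.104). In Y147F it was 0.39 ± 0.14 (adjusted p = 0.0887), also without overlap, in KO -0.22 ± 0.14 and in GS 0.01 ± 0.14. Cyp1a1, its neighbour on chromosome 9, stayed between 5.82 and 6.37 on all arrays and was called in no comparison, with differences from -0.18 in WT to 0.11 in KO. Cyp1a1 is normally near silent in liver until Ahr is activated.

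Cyp1b1, a P450 expressed mainly outside hepatocytes, read 6.15, 6.22 and 6.20 in WT without T3 and 5.99, 5.71 and 5.70 with it. It fell by 0.39 ± 0.12 in WT (adjusted p = 0.0368) and by 0.43 ± 0.12 in Y147F (adjusted p = 0.021). The differences in KO (-0.24 ± 0.12) and GS (-0.30 ± 0.12) were not called, though the groups did not overlap there either. The responses in KO and GS differed from that in WT by 0.15 and 0.10, neither called. The level of Cyp1b1 was low, from 5.55 to 6.32 over all arrays, near the array medians (5.88 to 6.00). The fall rests on 1 probe set, since the other one tested gave -0.02 ± 0.12 in WT and 0.18 ± 0.12 in Y147F. The WT call was also lost without WT T3 replicate 2 or 3 or any WT PBS array (adjusted p 0.0723 to 0.143) and with quantile normalisation (0.0572). The Y147F call was lost without PBS replicate 2 or 3 or T3 replicate 2 or 3 (0.0662 to 0.105), PBS replicate 3 being the array of different RNA quality, and with only the arrays compared (0.0833). Markers of other cells were read beside this fall. In WT the 12 sinusoidal endothelial markers averaged 9.25 to 9.34 on T3 arrays and 9.48 to 9.50 on PBS arrays, and 6 cholangiocyte markers 5.87 to 5.91 and 5.98 to 6.14, both lower with T3 without overlap and with no single marker called. The 12 stellate cell markers averaged 8.69 to 9.00 and 8.71 to 8.96 and overlapped. In Y147F the averages of all these lists overlapped, with 9.35 to 9.53 on T3 and 9.46 to 9.60 on PBS arrays for the endothelial one. Single markers called there were Eng (endothelial, 0.24) and Muc1 (cholangiocyte, 0.52), both higher with T3. The endothelial average was 9.05 to 9.47 on T3 and 9.35 to 9.41 on PBS arrays in KO, and 9.27 to 9.37 and 9.37 to 9.48 in GS. The stellate marker Lrat was called higher with T3 in KO (1.33) and GS (1.61). The part of these cells in the fall was not tested.

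In family 2, Cyp2f2 and Cyp2c70 rose with T3 in WT and stood higher in KO and GS than in WT without T3. Their promoters are shown because both held AGGTCA, in capitals. Cyp2f2 lies on chromosome 7 in the cluster of Cyp2b, Cyp2g and Cyp2a genes, with the window at chr7:27119705-27119954 on the plus strand. Cyp2c70 lies on chromosome 19 with the other Cyp2c genes, with the window at chr19:40187287-40187536 on the minus strand (RefSeq, GRCm38.p6, 250 bases before the start, 5′ to 3′ on the strand of the gene).
Cyp2f2 promoter: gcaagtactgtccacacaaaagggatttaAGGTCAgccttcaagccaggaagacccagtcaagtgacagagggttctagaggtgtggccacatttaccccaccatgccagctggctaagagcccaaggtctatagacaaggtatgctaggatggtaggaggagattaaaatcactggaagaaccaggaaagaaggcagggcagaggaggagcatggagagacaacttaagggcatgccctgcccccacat
Cyp2c70 promoter: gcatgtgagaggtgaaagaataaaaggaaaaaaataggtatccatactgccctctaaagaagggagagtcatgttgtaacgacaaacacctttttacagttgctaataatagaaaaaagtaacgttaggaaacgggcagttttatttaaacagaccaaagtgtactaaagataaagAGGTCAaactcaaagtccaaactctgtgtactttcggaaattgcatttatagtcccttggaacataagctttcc
The match began 221 bases before the start of Cyp2f2 and 74 bases before that of Cyp2c70. AGGTCA was found on either strand in 13 of 39 windows of members (33.3%), which belong to 12 of the 36 members with a window, beside 16.3% of all windows. Among the other members holding it, none that was tested was called with T3 in WT, and only Cyp3a25 was in Y147F. GCGTG, the core bound by Ahr with Arnt, was in 8 of the 39 (20.5%), beside 32.4% of all, and AGTTCA in 3 (7.69%), beside 14%. No member's window held AGGTCA repeated on one strand with 3 or with 4 bases between, or AGTTCA repeated with 4 between, spacings at which receptors paired with RXR can bind. Among all 32851 windows 2, 5 and 4 held them. These are matches of letters, not binding sites.

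Cyp2f2, a periportal P450 in liver that oxidises naphthalene, read 13.15, 13.39 and 13.50 in WT without T3 and 13.72, 13.74 and 13.76 with it. In Y147F it read 13.29, 13.30 and 13.46 with PBS and 14.10, 13.57 and 14.05 with T3. The groups were apart in both. T3 raised it by 0.39 ± 0.12 in WT (adjusted p = 0.0345), 1.31-fold, and by 0.56 ± 0.12 in Y147F (adjusted p = 0.00291), 1.47-fold. In KO it read 13.93, 13.99 and 14.27 without T3 and 13.97, 13.95 and 14.00 with it, and in GS 14.01, 14.05 and 14.17 without and 14.13, 14.01 and 13.91 with it. All KO and GS arrays stood above every WT array whether T3 was given or not. Without T3, KO exceeded WT by 0.71 ± 0.12 (adjusted p = 0.0008), 1.64-fold. GS exceeded WT by 0.73 ± 0.12 (adjusted p = 0.000943), 1.66-fold, and both kept the call in every fit that left out 1 array. T3 changed it by -0.09 ± 0.12 in KO and -0.06 ± 0.12 in GS, and the difference of these responses from that in WT was -0.48 ± 0.17 and -0.45 ± 0.17, not called (adjusted p = 0.158 and 0.199). The T3 call in WT was lost without any of the T3 arrays or without PBS replicate 1 or 2 (0.0624 to 0.191) and with a covariate for high title numbers (0.0505), and the one in Y147F with only the arrays compared (0.0584).

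Cyp2c70 makes the muricholic acids that mark mouse bile. It read 12.63, 12.11 and 12.29 in WT without T3 and 12.79, 12.96 and 12.80 with it. The groups did not overlap, and the rise was 0.50 ± 0.13 (adjusted p = 0.0148), 1.42-fold. Without T3 replicate 2, PBS replicate 2 or PBS replicate 3 it was not called (adjusted p 0.0532 to 0.0996). In Y147F the arrays read 12.40, 12.54 and 12.60 with PBS and 12.85, 12.58 and 12.85 with T3, a difference of 0.24 ± 0.13 that was not called (adjusted p = 0.269). KO mice had 13.08, 13.59 and 13.18 without T3 and 13.13, 12.93 and 13.01 with it, and GS mice 13.20, 13.07 and 13.11 without and 13.11, 12.84 and 13.21 with it. Every KO and GS array without T3 lay above every WT array without T3. The level without T3 was above WT by 0.94 ± 0.13 in KO (adjusted p = 0.000197), 1.92-fold, and by 0.78 ± 0.13 in GS (adjusted p = 0.00142), 1.72-fold. T3 changed it by -0.26 ± 0.13 in KO and -0.07 ± 0.13 in GS. The response in KO minus that in WT was -0.76 ± 0.19 (adjusted p = 0.0243), a call that was lost without WT T3 replicate 2, WT PBS replicate 2 or 3, KO T3 replicate 2 or 3, or KO PBS replicate 2 (0.0512 to 0.0789), and with only the arrays compared (0.0788). In GS the difference was -0.57 ± 0.19 and not called (adjusted p = 0.121).

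Without T3, several members differed between genotypes. In KO 6 were called against WT, 3 higher and 3 lower, beside 6.86% of all genes (3.75% higher and 3.11% lower), and 19 (50%) did not overlap, beside 23.6%. In GS 4 were called, 3 higher and 1 lower, beside 2.97% (1.98% higher and 0.995% lower), and again 19 (50%) did not overlap, beside 20.4%. The median size of a difference, its sign left out, was 0.19 among members and 0.10 among all genes in KO, and 0.20 and 0.09 in GS. Y147F had no member called against WT, with 5 at an unadjusted p under 0.05, beside 0.0847% of all genes called (0.0424% in each direction), and 11 (28.9%) did not overlap, beside 17.7%. GS and KO were not told apart by limma in any member, with 7 at an unadjusted p under 0.05, beside 0.0988% of all genes called (0.0494% in each direction), and 7 (18.4%) did not overlap, beside 14.4%. The KO and GS comparisons share the WT PBS arrays.

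Of the other members called, Cyp2d10 of the Cyp2d cluster on chromosome 15 read 13.51, 13.52 and 13.47 in WT, 13.77, 13.75 and 13.72 in KO and 13.75, 13.71 and 13.67 in GS, all without T3. KO stood above WT by 0.25 ± 0.05 (adjusted p = 0.00658) and GS by 0.21 ± 0.05 (adjusted p = 0.0317), with no overlap. Its SD within groups, 0.04, was among the smallest of all genes. The GS call was lost without any 1 of the 6 arrays compared (0.058 to 0.133) and with no filter (0.0521), and both were lost with only the arrays compared (0.0958 and 0.17).

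Cyp2c55, which oxidises arachidonic acid, read 7.35, 7.33 and 7.58 in WT without T3 and 6.72, 6.64 and 7.00 in KO. The difference was -0.64 ± 0.15 (adjusted p = 0.0128), and without WT PBS replicate 3 or KO PBS replicate 2 it was not called (0.0628 and 0.0668). GS arrays read 6.95, 6.66 and 7.11 and also lay below all WT arrays, with a difference of -0.51 ± 0.15 that was not called (adjusted p = 0.0722). Cyp2c39, a retinoic acid hydroxylase and neighbour of Cyp2c29 on chromosome 19, read 7.52, 7.79 and 7.59 in WT and 7.11, 7.02 and 7.03 in KO. The difference was -0.58 ± 0.17 (adjusted p = 0.0457), but leaving out any 1 of the 6 arrays ended the call (0.0645 to 0.177), as did the covariate for title numbers (-0.54 ± 0.20, adjusted p = 0.136). With no filter, or with genes read as the mean of their probe sets, its difference was the same (it has 1 probe set) and the adjusted p was 0.0541 and 0.0545.

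**Figure D3:**
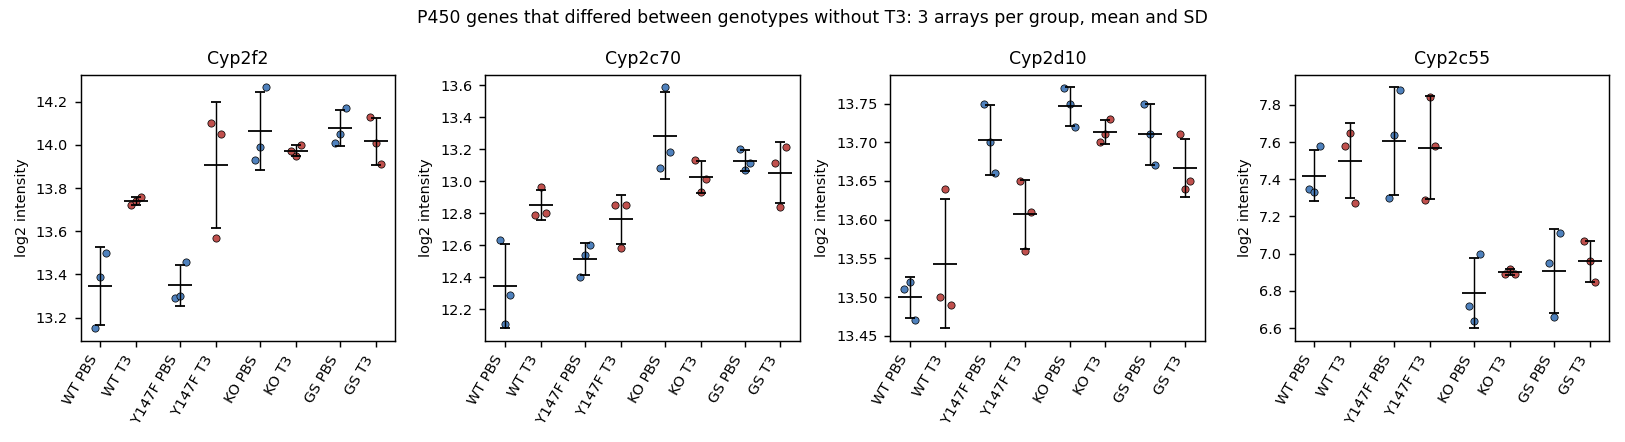
Log2 intensity (vertical axis) of Cyp2f2, Cyp2c70, Cyp2d10 and Cyp2c55 on each array of the 8 groups (horizontal axis), PBS in blue and T3 in red, with a bar for the mean and whiskers for 1 SD, n = 3. KO and GS without T3 stand above WT without T3 for the first 3 genes and below it for Cyp2c55.

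Markers of liver zones and of other cells were read beside these differences. Against WT without T3, 6.86% of all genes tested were called in KO and 2.97% in GS. With T3 the shares were 10.6% in WT and 11.6% in Y147F. Of 11 periportal markers that are no members, 3 stood higher and 2 lower in KO than in WT without T3, with Ctsc (1.29) and Cdh1 (1.49) higher and Aldh1b1 (-0.96) lower. In GS, Ctsc alone was called (1.61). Of 12 pericentral markers Lhpp and Oat were lower in both (-1.0 and -0.68 in KO, -0.77 and -0.45 in GS). The 13 Kupffer cell markers averaged 9.17 to 9.34 on KO PBS arrays, 9.00 to 9.11 on GS and 8.98 to 9.06 on WT. Of these markers Clec4f was called in KO, near the threshold (0.59 ± 0.18, adjusted p = 0.0499). Of 12 stellate cell markers Lrat was lower in KO (-1.15) and GS (-1.13), and their average was 8.81 to 9.14 on KO PBS arrays, 8.57 to 8.67 on GS and 8.71 to 8.96 on WT. Among 17 acute phase genes Saa3 (0.98) and Hpx (0.24) were higher in KO and none was called in GS. The sinusoidal endothelial markers averaged 9.35 to 9.41 on KO PBS arrays, below the 9.48 to 9.50 of WT, and 9.37 to 9.48 on GS. The periportal list averaged 12.17 to 12.20 on GS PBS arrays, above the 11.80 to 12.05 of WT, and 11.89 to 12.15 on KO, which overlapped WT. With T3 in WT, Hsd17b13 (-0.20) of the periportal markers fell, and of the pericentral ones Lgr5 rose (0.48) and Lhpp fell (-0.49). In Y147F 1 periportal marker rose with T3 (Cdh1, 1.54) and 3 fell (Hal, Asl and Hsd17b13). There 2 pericentral ones rose (Lgr5, 0.62, and Rhbg, 0.50 ± 0.16, adjusted p = 0.0473). None of the zone markers was called with T3 in KO or GS. With T3 in WT none of the Kupffer markers was called (average 8.74 to 9.04), and of the acute phase genes 3 fell, Crp by 0.56 among them. The part of these genes in the P450 differences was not tested.

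At most 1 Cyp2c gene was called in any T3 response. Of 10 tested, 1 rose in WT with T3 (Cyp2c70) with a median of -0.03, and 1 fell in Y147F with a median of -0.19. That one was Cyp2c68, which read 13.15, 13.07 and 12.95 with PBS and 12.81, 12.75 and 12.57 with T3. Its groups did not overlap, and the difference was -0.35 ± 0.10 (adjusted p = 0.0321), beside -0.12 ± 0.10 in WT. It was not called without PBS replicate 1 or 2 or T3 replicate 2 or 3 (0.061 to 0.124), with only the arrays compared (0.075) or with a covariate for high title numbers (0.124). Cyp2c23, an arachidonic acid epoxygenase, was the member called in KO with T3. It read 12.75, 12.71 and 12.76 without T3 and 12.04, 12.36 and 12.22 with it, a fall of 0.54 ± 0.10 (adjusted p = 0.029). In the other genotypes it differed by -0.24 (WT), -0.18 (GS) and -0.15 (Y147F). Leaving out any KO array but T3 replicate 2 ended the call (0.0663 to 0.194), as did a fit of the KO arrays alone (0.246), and its probe set can match more than 1 transcript by its suffix.

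The Cyp2b genes include Cyp2b10, the classic target of Nr1i3, and none of them was called in any comparison. Cyp2b10, by its brightest probe set, read 6.90, 7.03 and 7.01 in WT without T3 and 6.78, 7.40 and 7.14 with it. The groups overlapped, and the difference was 0.12 ± 0.14 (interval -0.16 to 0.41). It was 0.31 ± 0.14 in KO, -0.24 ± 0.14 in GS and -0.16 ± 0.14 in Y147F. Its 2 other probe sets, of a kind that can match several transcripts, moved further, by 0.79 ± 0.33 and 0.85 ± 0.38 in WT, 0.77 and 0.60 in KO, -0.73 and -0.79 in GS and -0.29 and -0.54 in Y147F, none of them called. In WT, T3 replicates 2 and 3 read 6.88 and 6.06 by one of them and 7.42 and 6.36 by the other, above all PBS arrays, and replicate 1 read 5.22 and 5.70, within the PBS range.

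Cyp2b9, a female-predominant P450 of mouse liver, had the widest spread of all members. In WT it read 8.90, 9.85 and 8.39 with PBS and 6.98, 9.44 and 9.48 with T3. In KO it read 9.23, 7.05 and 4.98 with PBS, the lowest of them under the 40th percentile of its array, and 8.12, 9.03 and 8.01 with T3. In GS it read 10.33, 8.82 and 10.33 with PBS and 11.12, 8.93 and 8.55 with T3, and in Y147F 10.05, 10.14 and 9.74 with PBS and 10.53, 10.24 and 7.11 with T3. The pooled SD within groups was 1.31, at the 100th percentile of all genes tested, and the range over all arrays was 6.14. A T3 difference of -0.41 ± 0.95 in WT came with an interval of -2.40 to 1.57. Without T3, KO minus WT was -1.96 ± 0.95 and GS minus KO 2.74 ± 0.95, neither called (adjusted p = 0.266 and 0.313). Cyp2b13, its female-predominant neighbour, stayed between 5.75 and 6.30 and was called nowhere.

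**Figure D4:**
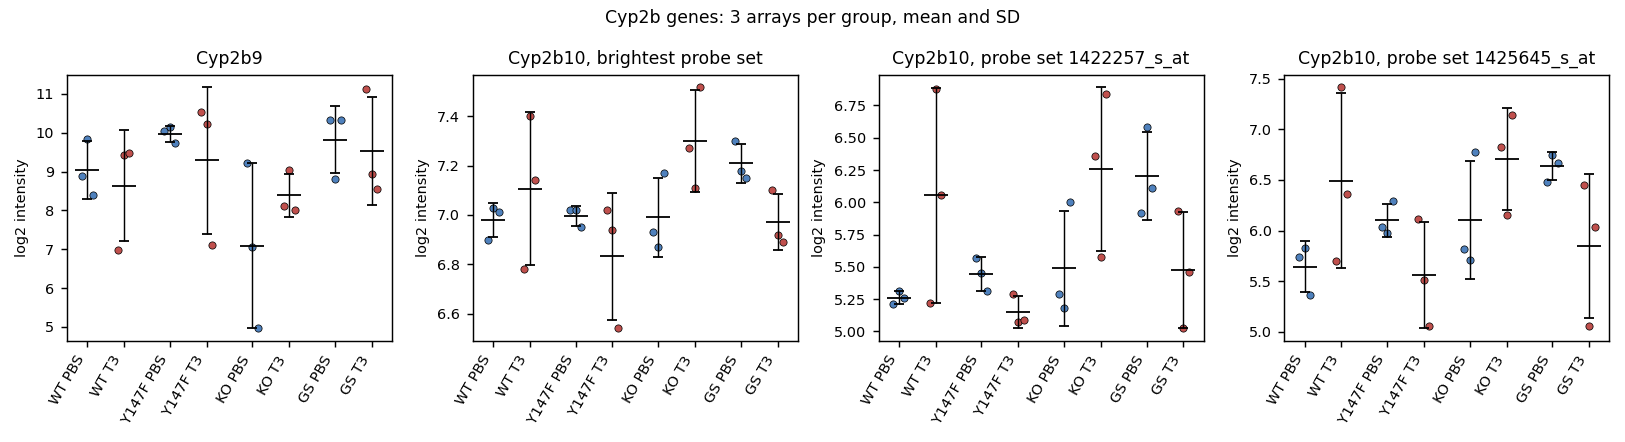
Log2 intensity (vertical axis) of Cyp2b9 and of the 3 probe sets of Cyp2b10 on each array of the 8 groups (horizontal axis), PBS in blue and T3 in red, with a bar for the mean and whiskers for 1 SD, n = 3. Cyp2b9 runs from 4.98 to 11.12 with arrays of 1 group far apart, and the Cyp2b10 probe sets differ in the size of their T3 differences.

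The pattern of growth hormone secretion is known to set the sex bias of such P450s, and other genes under it were counted from a list of 10 tested. The shares of all genes called were 6.86% in KO and 2.97% in GS without T3, and 10.6% in WT with T3. In KO without T3 the male-predominant genes Slco1a1 (1.77), Cyp7b1 (0.88) and Mup3 (0.51, adjusted p = 0.0485) stood higher than in WT. The female-predominant Acot3 was lower (-2.15). In GS Mup3 was higher (0.57, adjusted p = 0.0436). With T3 in WT, Elovl3 rose by 1.10 and Acot3 fell by 3.43. Both were called in Y147F too (Elovl3 1.78, Acot3 -3.94), beside 11.6% of all genes. The T3 response of Acot3 differed from that in WT by 4.16 in KO and 2.55 in GS. Such a difference was called for 3.09% of all genes in KO and 2.92% in GS. Among the 3 female-predominant members tested, Cyp2c39 was the one called, lower in KO as given above.

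In the remaining subfamilies few members were called. Cyp2e1 differed with T3 by -0.05 ± 0.05 in WT (interval -0.16 to 0.05), -0.01 in KO, 0.02 in GS and -0.02 in Y147F. It read near the brightest probe set of an array (15.12 to 15.21), and whether it could show a change at that level was not tested. None of the 4 Cyp2j genes tested was called anywhere, with medians from -0.07 in WT to 0.08 in Y147F for T3. None of the 6 Cyp2d genes tested was called with T3, where their medians ran from -0.12 in Y147F to -0.03 in KO. The next 3 members were chosen for description after their values were seen. Cyp2r1, a vitamin D 25-hydroxylase, read 9.16, 9.09 and 9.33 in WT without T3 and 9.47, 9.49 and 9.56 with it, a difference of 0.31 ± 0.12 (adjusted p = 0.131), and stood above WT by 0.36 ± 0.12 in KO and 0.38 ± 0.12 in GS without T3, not called though the groups did not overlap. Cyp2d40 lay above WT by 0.55 ± 0.17 in KO (adjusted p = 0.0589) and Cyp2a12 by 0.36 ± 0.11 in GS (adjusted p = 0.0752), both without T3. The level of Cyp2d40 was low, 5.70, 5.77 and 5.73 in WT and 6.19, 6.52 and 6.13 in KO, near the array medians (5.88 to 6.00).

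Family 3 holds the Cyp3a genes, among them Cyp3a11, a known target of Nr1i2. Cyp3a11, the main drug-metabolising P450 of mouse liver, read 14.33, 14.05 and 14.10 in WT without T3 and 14.34, 14.12 and 13.88 with it. The groups overlapped and the difference was -0.05 ± 0.18 (interval -0.42 to 0.33). It is one of the 10 members above the 99th percentile of all probe sets. It was 0.07 ± 0.18 in KO, 0.28 ± 0.18 in GS and -0.20 ± 0.18 in Y147F. In GS without T3 it read 14.20, 13.07 and 13.94, the second array being the lowest of all 24, and the differences of GS from WT (-0.43 ± 0.18) and from KO (-0.54 ± 0.18) were not called (adjusted p = 0.27 and 0.286).

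Cyp3a25, next to Cyp3a11 on chromosome 5, rose in Y147F. It read 13.33, 13.54 and 13.52 with PBS and 13.81, 14.02 and 13.54 with T3, and the rise was 0.33 ± 0.10 (adjusted p = 0.0301). Without PBS replicate 1 or T3 replicate 1 or 2 it was not called (0.0919 to 0.189), nor with only the arrays compared (0.196) or the covariate for title numbers (0.125). In WT it differed by 0.21 ± 0.10, not called (adjusted p = 0.189), with 13.55, 13.60 and 13.58 against 13.89, 13.79 and 13.69. Cyp3a13 read 12.18, 12.19 and 12.13 in Y147F with PBS and 11.92, 11.99 and 11.84 with T3. Its difference of -0.25 ± 0.08 was not called (adjusted p = 0.0594), but was with a filter at the 60th percentile (0.0444) and with a variance trend and robust moderation (0.0402). In WT it was -0.05 ± 0.08 and in GS -0.22 ± 0.08, neither called.

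P450s need heme and electrons. Of 17 tested genes of heme supply, heme breakdown and redox partners, 3 rose and 2 fell in WT with T3. In Y147F 1 rose and 2 fell, and in KO and GS none was called. The shares of all genes called were 10.6% in WT, 11.6% in Y147F, 0.177% in KO and 0.148% in GS. The heme oxygenases Hmox2 (0.50 ± 0.06) and Hmox1 (0.49 ± 0.13), which break heme down, rose in WT. The synthesis enzyme Alad rose too (0.52 ± 0.17, adjusted p = 0.0459), and Cpox (-0.55 ± 0.13) fell beside Alas1, already given. In Y147F Hmox2 (0.32) rose and Cpox (-0.43) fell. Without T3, Hmox2 stood higher than in WT by 0.39 ± 0.06 in KO and 0.52 ± 0.06 in GS and was the one gene of the list called there.

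Members varied more between arrays of a group than most genes. The median of the pooled SD within groups was 0.16 for the 38 members and 0.12 for all genes tested. Cyp2b9 (1.31), Cyp2j9 (0.30) and Cyp2g1 (0.27) had the largest and Cyp2e1 (0.03) and Cyp2d10 (0.04) the smallest.

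**Figure D5:**
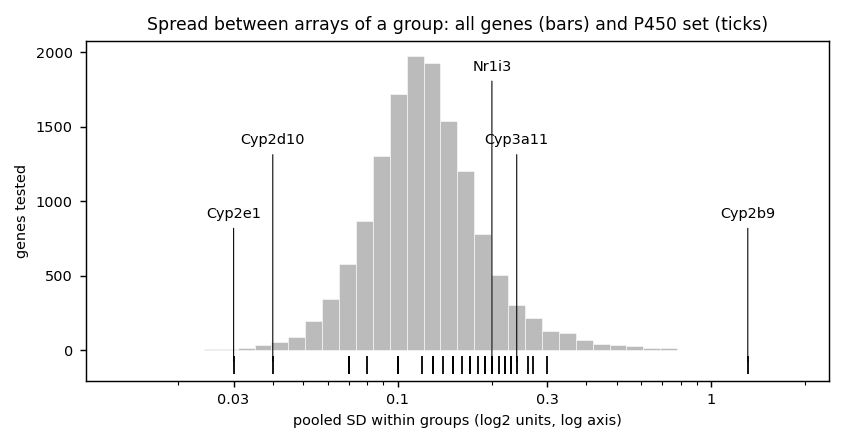
Pooled SD within the 8 groups (horizontal log axis, log2 units) for the 14164 genes tested (bars, number of genes on the vertical axis) and for the 38 members (ticks under the bars). Cyp2e1 at 0.03 and Cyp2b9 at 1.31 lie at opposite ends, and the median of the members is 0.16 against 0.12 for all genes.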

How the data were processed

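Total RNA of each liver, 200 ng, was hybridised to an Affymetrix mouse array with 45101 probe sets. Per the labels and the submitters' processing notes, RMA (version not given in the sources used here) was the authors' summary method. The deposited values of 18 arrays are on its log2 scale. In the other 6 columns (Y147F) the deposited numbers had lost their decimal mark, another form of the same values. The mark was put back to give values from 3 to 16, and 1324 cells (0.489%) that could be spreadsheet dates were set missing, among them 1 value of a member (Cyp2d22, Y147F PBS replicate 2). The probe table gave 34958 probe sets 1 symbol, 932 several and 9211 none. A gene was read by its probe set of highest mean, and 8 members had several.

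With limma 3.58.1 in R 4.3.3, 8 group means were fitted to 14164 genes (16 residual, 4.28 prior degrees of freedom), with two-sided tests adjusted by Benjamini and Hochberg. Promoters are RefSeq windows, 250 bases before to 50 after the start. The steps were tested on simulated data. Named were members called in a comparison, a set list of members, and up to 4 called genes of each other list. Members and lists were chosen with earlier results of these data known. Alternatives tried were quantile normalisation, other filters, the mean of probe sets, array weights, a variance trend, a covariate for title numbers over 100000, fits of the first submission or of only the groups compared, a 2-fold threshold, leaving out arrays, and, chosen after seeing the data, each probe set alone.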

Additional observations from a re-analysis of the deposited data

Results flagged for a closer look

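The difference between 2 genotypes' T3 responses was itself tested and passed limma's threshold for 5 member responses. Nr1i2 lay above the WT response by 1.16 in KO and 0.99 in GS, Nr1i3 by 0.89 in KO and 0.90 in GS, and Cyp2c70 differed from it by -0.76 in KO. For Nr1i3 and Cyp2c70 the PBS groups of the genotypes compared differed as well, by the values given in the report. With 3 arrays a group, single arrays were not tested as outliers.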

How the results depend on the processing

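The 27 member differences called were recomputed in 439 alternative fits, of which 438 kept the direction and 353 the call, and 10 differences were called in every fit. The exception in direction was Cyp1b1 in Y147F with T3, 0.18 by its other probe set. Counts of members called moved as follows. With a 2-fold threshold they were 1 for T3 in WT, 0 in KO and Y147F, 0 for KO or GS against WT without T3, 1 for the KO and 0 for the GS difference in response. With only the arrays compared they were 0 for T3 in KO, 2 for T3 in Y147F and 1 for GS against KO. Array weights gave 7 for GS against WT, and a variance trend with robust moderation 1 for Y147F against WT. Leaving out each array in turn gave 2 to 4 for T3 in WT, 0 to 1 in KO, 0 in GS, 3 to 5 in Y147F, 3 to 6 for KO and 2 to 3 for GS against WT, 0 to 1 for GS against KO, 0 for Y147F against WT, and 1 to 3 for the KO and for the GS difference in response. The differences in response of GS from KO and of Y147F from WT stayed at 0. Where 2 arrays of a group remained, the model's shared spread was used. The cause of these changes was not tested. A fit of the first submission alone, without the 6 restored columns, gave 6 for GS against WT. The planned identity between member proteins was not run. No paired analysis was possible because the labels give no replicate number that groups share, and do not say what arrays with near title numbers have in common. With the covariate for title numbers the counts for T3 in WT and in Y147F were 4 each, and no count moved by over 1.5 times.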
